A study of Homo sapiens with 12 samples.

Results

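The IL-1 family of cytokines and receptors was examined through 10 genes, of 22392 genes with a probe set of exactly 1 gene symbol. The genes were taken by name, with earlier results of these data known. They were the ligands IL1A, IL1B, IL18, IL33 and IL36G, the receptor antagonist IL1RN, and the receptor chains IL1R1, IL1R2, IL1RAP and IL1RL1. All 10 had a probe set. They were measured in MDA-MB-231 cells, an established human line of triple-negative breast cancer, treated for 48 hours with vehicle (DMSO), with 1 µM JQ1, with 3.17 µM mocetinostat, or with both compounds at these doses. JQ1 displaces the BET proteins, which read acetylated histones, and mocetinostat inhibits histone deacetylases, which remove the acetyl groups. RNA of each treatment was measured on 3 arrays, 12 in all, and the comparisons ask how each compound and the combination altered expression. No group carried a genetic change made for the study, and a single cell line limits what the values stand for.

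IL-1α and IL-1β bind the receptor IL1R1, which recruits the accessory chain IL1RAP and signals through the adaptor MYD88 and IRAK kinases to NF-κB and MAP kinases. The pathway is held back by a soluble antagonist, encoded by IL1RN, and by the decoy receptor IL1R2, which binds ligand without signaling. IL-1α is active as its precursor and is released by damaged epithelial and tumor cells, whereas IL-1β and IL-18 are cut to their active form by caspase-1 in inflammasomes, and IL-33 and IL-36γ act through related receptors that share IL1RAP.

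To show start regions of the ligand genes IL1A and IL1B and the antagonist gene IL1RN, RefSeq promoter windows (GRCh38.p14, from 250 bases before to 50 bases after a start site) are printed from 5′ to 3′ on the coding strand. Capitals mark matches, on either strand, to the AP-1 motif TGANTCA, the consensus κB motif and the C/EBP motif TTNNGNAA. IL1A lies at chr2:112784444-112784743 on the minus strand, IL1B at chr2:112836730-112837029 on the minus strand, and the IL1RN window, the last of its 3 in the table, at chr2:113127348-113127647 on the plus strand.
IL1A: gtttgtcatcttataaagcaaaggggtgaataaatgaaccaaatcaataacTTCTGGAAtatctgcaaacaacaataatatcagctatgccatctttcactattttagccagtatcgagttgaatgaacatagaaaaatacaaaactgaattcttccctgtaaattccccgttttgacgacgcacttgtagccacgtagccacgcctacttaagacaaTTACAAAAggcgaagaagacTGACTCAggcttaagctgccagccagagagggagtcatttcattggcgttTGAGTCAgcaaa
IL1B: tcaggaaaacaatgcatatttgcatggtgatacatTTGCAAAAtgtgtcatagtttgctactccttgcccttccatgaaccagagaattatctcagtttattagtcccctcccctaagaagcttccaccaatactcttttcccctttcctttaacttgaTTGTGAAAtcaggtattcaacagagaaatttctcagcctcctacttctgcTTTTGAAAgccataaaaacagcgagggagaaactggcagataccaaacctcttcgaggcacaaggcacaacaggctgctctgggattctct
IL1RN: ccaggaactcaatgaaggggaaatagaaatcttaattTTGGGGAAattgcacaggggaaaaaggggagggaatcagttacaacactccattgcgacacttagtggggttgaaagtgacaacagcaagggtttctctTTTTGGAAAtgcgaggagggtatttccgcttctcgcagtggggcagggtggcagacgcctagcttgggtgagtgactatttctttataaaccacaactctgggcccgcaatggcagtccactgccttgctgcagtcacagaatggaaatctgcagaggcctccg
The printed IL1A window held 2 AP-1 matches, TGACTCA starting 12 bases before the start site and TGAGTCA starting at base 39 after it, with 2 C/EBP matches and no κB match. Another IL1A window overlaps it and held the same 2 AP-1 matches, which start at positions −105 and −55 from its own start site. The IL1B window held 3 C/EBP matches and neither of the others. The IL1RN window held 3 C/EBP matches, of which 2 overlap, and neither of the others, while another IL1RN window held 1 AP-1 match (TGAGTCA, from position −223). Across 34796 promoters of the same length, 7.73% held the AP-1 motif, 11.3% the κB motif and 36.9% the C/EBP motif. Among the 18 windows of the 9 members in the table, the shares were 22.2%, 5.56% and 55.6%. Several of these windows overlap each other, so the same match can count in more than 1 window, as for IL1A and IL1RN. A match shows only that these letters occur in the window. IL18 was not matched to a window.

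The values are log2 signals summarized by RMA, as deposited, so a difference of 1 is 2-fold. A gene passed the filter, taken from the study's methods, when its change was at least 2-fold with a p under 0.001 before adjustment in a limma fit of all 12 arrays, and adjusted p values are Benjamini-Hochberg values over all 53617 probe sets. Array medians lay between 3.58 and 3.66, and arrays of 1 treatment correlated at 0.986 or more over all probe sets. Arrays were grouped by source name, which matches the title, although the description field names a different treatment for most of them. HEXIM1, a gene known to rise with BET inhibitors, averaged 9.02 in DMSO, 10.2 with JQ1, 10.9 with both compounds and 9.81 with mocetinostat. CDK1, a cell cycle kinase gene, averaged 8.96, 5.65, 3.89 and 4.82 in the same order. Of 7 genes typical of MDA-MB-231, none lay below the median probe set in any treatment. Of 6 measured genes listed as low in this line, 4 lay below the median probe set in DMSO. With JQ1, mocetinostat and the combination the numbers were 3, 3 and 2. Of these genes, GATA3 averaged 6.68 in DMSO and CDH1 6.31 with mocetinostat. In bulk RNA, fewer cells that express a gene cannot be told apart from less RNA per cell.

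The response differed by treatment. JQ1 lowered IL1A and IL1B and raised IL18, mocetinostat raised 8 of the 10 genes, and the combination lowered IL1A and IL1B while it raised IL18 and IL1R2. JQ1 raised 1 and lowered 2 members, where 1.51% of all probe sets passed upward and 2.51% downward. Mocetinostat raised 8 and lowered 0, against 4.66% and 3.14% of all probe sets. The combination raised 2 and lowered 2, against 5.23% and 4.63%. The median log2 change of the 10 genes was −0.07 for JQ1, 1.73 for mocetinostat and 0.11 for both compounds, where the medians over all probe sets were 0.04, −0.02 and 0.01.

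**Figure D1:**
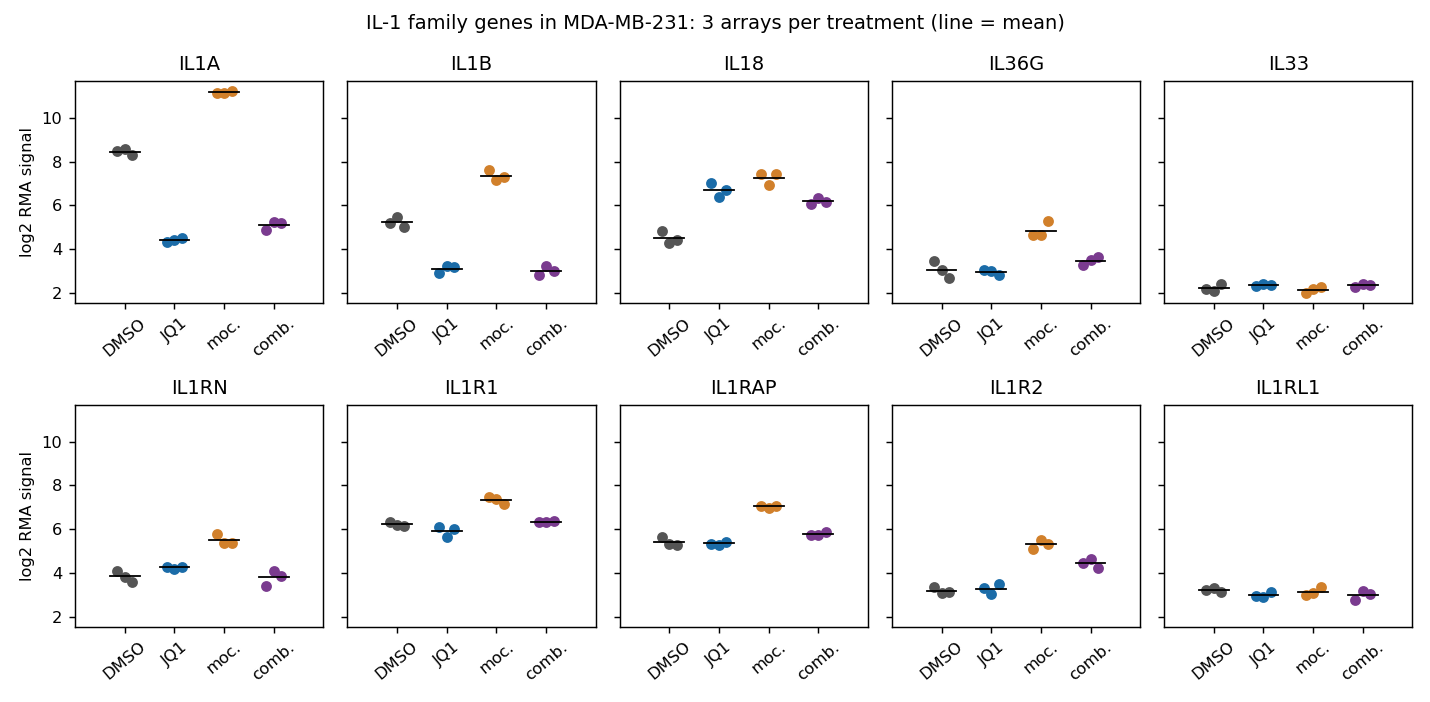
Log2 RMA signal (y axis) of each IL-1 family gene in the 3 arrays of each treatment (points), with the treatment mean (line). IL1A and IL1B were high with mocetinostat and low in the arrays given JQ1 or both compounds, whereas IL18 was above DMSO with every treatment.

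IL1A, which encodes the alarmin IL-1α, had the widest range among the members. Its signal was 8.48, 8.56 and 8.31 in DMSO, 4.31, 4.43 and 4.51 with JQ1, 11.15, 11.15 and 11.22 with mocetinostat, and 4.86, 5.23 and 5.20 under the combination. No array of any treatment overlapped with those of another. The mean moved from percentile 91 of all probe sets in DMSO to percentile 63.4 with JQ1, 98.7 with mocetinostat and 68.8 with both compounds. JQ1 lowered IL1A 16.3-fold (log2 change −4.03, SE 0.12, adjusted p = 3.36e-09), mocetinostat raised it 6.62-fold (2.73, SE 0.12, adjusted p = 1.19e-08) and the combination lowered it 10.2-fold (−3.35, SE 0.12, adjusted p = 1.74e-09). The 4 treatments were ordered mocetinostat, DMSO, combination and JQ1, and each differed from the next at an adjusted p under 0.05. The combination lay 0.68 above JQ1 (SE 0.12, adjusted p = 0.00124), which is under 2-fold, and 67.6-fold below mocetinostat (−6.08, SE 0.12, adjusted p = 3.24e-10).

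IL1B, which encodes the inflammasome substrate IL-1β, followed the same directions. It measured 5.21, 5.48 and 5.03 in DMSO, 2.91, 3.22 and 3.19 with JQ1, 7.63, 7.18 and 7.29 with mocetinostat, and 2.84, 3.24 and 2.99 under the combination. The JQ1 and combination arrays overlapped each other, lay below all DMSO arrays, and averaged at percentiles 36 and 33.6 of all probe sets, below the median probe set. JQ1 lowered IL1B 4.39-fold (−2.13, SE 0.16, adjusted p = 3.08e-06), mocetinostat raised it 4.37-fold (2.13, SE 0.16, adjusted p = 1.4e-06), and the combination lowered it 4.66-fold (−2.22, SE 0.16, adjusted p = 7.33e-07). The combination differed from JQ1 by −0.09 (SE 0.16, adjusted p = 0.79) and lay 20.4-fold below mocetinostat (−4.35, SE 0.16, adjusted p = 2.65e-08). Differences between low array signals are compressed.

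IL18, the other caspase-1 substrate among the members, was the only member that rose with JQ1. It measured 4.84, 4.29 and 4.40 in DMSO, 7.02, 6.37 and 6.69 with JQ1, 7.43, 6.95 and 7.42 with mocetinostat, and 6.08, 6.35 and 6.16 under the combination. Every treated array lay above every DMSO array, and the JQ1 and mocetinostat arrays overlapped. IL18 rose 4.54-fold with JQ1 (2.18, SE 0.20, adjusted p = 1.17e-05), 6.74-fold with mocetinostat (2.75, SE 0.20, adjusted p = 8.72e-07) and 3.21-fold with the combination (1.68, SE 0.20, adjusted p = 3.86e-05). Among the treated groups, mocetinostat and JQ1 differed by 0.57 (adjusted p = 0.0625) and JQ1 and the combination by 0.50 (adjusted p = 0.108), so these neighbors in the order missed an adjusted p of 0.05, although every JQ1 array lay above every combination array. The combination lay 1.07 below mocetinostat (SE 0.20, adjusted p = 0.00319), a difference that missed the filter when mocetinostat array 1 or 3 or combination array 1 or 3 was left out (−1.05 to −0.99).

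IL36G, the epithelial ligand IL-36γ, measured 3.45, 3.06 and 2.67 in DMSO, 3.07, 3.02 and 2.84 with JQ1, 4.66, 4.63 and 5.27 with mocetinostat, and 3.30, 3.50 and 3.65 under the combination. All mocetinostat arrays lay above all DMSO arrays, by 3.46-fold on average (1.79, SE 0.21, adjusted p = 4.77e-05). The DMSO mean was at percentile 35.4, below the median probe set, so this fold too may be understated. The combination differed from DMSO by 0.42 (SE 0.21, adjusted p = 0.18) and JQ1 by −0.08 (SE 0.21, adjusted p = 0.866). Combination arrays 2 and 3 lay above all DMSO arrays, and combination array 1 did not. IL33, a nuclear alarmin of barrier tissues, measured between 2.01 and 2.43 on all 12 arrays, with treatment means between percentiles 4.32 and 8.01 of all probe sets. It passed the filter in none of the comparisons, and its log2 changes against DMSO were 0.11, −0.09 and 0.10 for JQ1, mocetinostat and the combination.

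The antagonist gene IL1RN rose with mocetinostat only. It measured 4.09, 3.83 and 3.60 in DMSO, 4.29, 4.20 and 4.27 with JQ1, 5.79, 5.36 and 5.35 with mocetinostat, and 3.42, 4.09 and 3.88 under the combination. The mocetinostat arrays lay above all others, the JQ1 arrays just above those of DMSO, and the combination and DMSO arrays overlapped. Mocetinostat raised IL1RN 3.16-fold (1.66, SE 0.18, adjusted p = 3.21e-05). The change was 0.41 with JQ1 (SE 0.18, adjusted p = 0.18) and −0.05 with the combination (SE 0.18, adjusted p = 0.898), with a 95% interval of −0.45 to 0.36 for the latter.

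IL1R1, the signaling receptor for both IL-1 ligands, measured 6.31, 6.21 and 6.13 in DMSO, 6.08, 5.66 and 5.99 with JQ1, 7.48, 7.38 and 7.16 with mocetinostat, and 6.32, 6.32 and 6.37 under the combination. All JQ1 arrays lay just below all DMSO arrays, and all combination arrays just above them. IL1R1 rose 2.18-fold with mocetinostat (1.12, SE 0.12, adjusted p = 2.84e-05), and scaled to ribosomal protein genes this change was 0.94 and missed the filter. The changes were −0.31 with JQ1 (SE 0.12, adjusted p = 0.126) and 0.12 with the combination (SE 0.12, adjusted p = 0.555).

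IL1RAP, the accessory chain shared by the IL-1, IL-33 and IL-36 receptors, measured 5.63, 5.30 and 5.26 in DMSO, 5.32, 5.29 and 5.43 with JQ1, 7.07, 6.98 and 7.06 with mocetinostat, and 5.72, 5.71 and 5.86 under the combination. The mocetinostat arrays stood apart, and the combination arrays lay slightly above those of DMSO and JQ1. IL1RAP rose 3.12-fold with mocetinostat (1.64, SE 0.11, adjusted p = 4.33e-07), while the combination changed it by 0.37 (SE 0.11, adjusted p = 0.0227) and JQ1 by −0.05 (SE 0.11, adjusted p = 0.846). A second IL1RAP probe set moved less, by 0.75 with mocetinostat (adjusted p = 0.00221), and did not pass the filter.

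The decoy receptor gene IL1R2 was the only receptor gene that passed the filter upward with the combination, while the smaller rise of IL1RAP was under 2-fold. It measured 3.35, 3.09 and 3.11 in DMSO, 3.29, 3.05 and 3.48 with JQ1, 5.09, 5.49 and 5.34 with mocetinostat, and 4.46, 4.65 and 4.22 under the combination. The DMSO and JQ1 arrays overlapped, and the combination arrays lay between these and the mocetinostat arrays. IL1R2 rose 4.36-fold with mocetinostat (2.12, SE 0.15, adjusted p = 9.54e-07) and 2.40-fold with the combination (1.26, SE 0.15, adjusted p = 5.33e-05), and the latter became 0.93, below 2-fold, when the arrays were scaled to ribosomal protein genes. The DMSO mean of IL1R2 was at percentile 39.4, below the median probe set, so these folds may understate the rise. The combination was 0.86 below mocetinostat (SE 0.15, adjusted p = 0.00257), under 2-fold. IL1RL1, which encodes the IL-33 receptor ST2, measured between 2.77 and 3.35 on all arrays, below the median probe set by every treatment mean, and passed the filter in none of the comparisons.

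**Figure D2:**
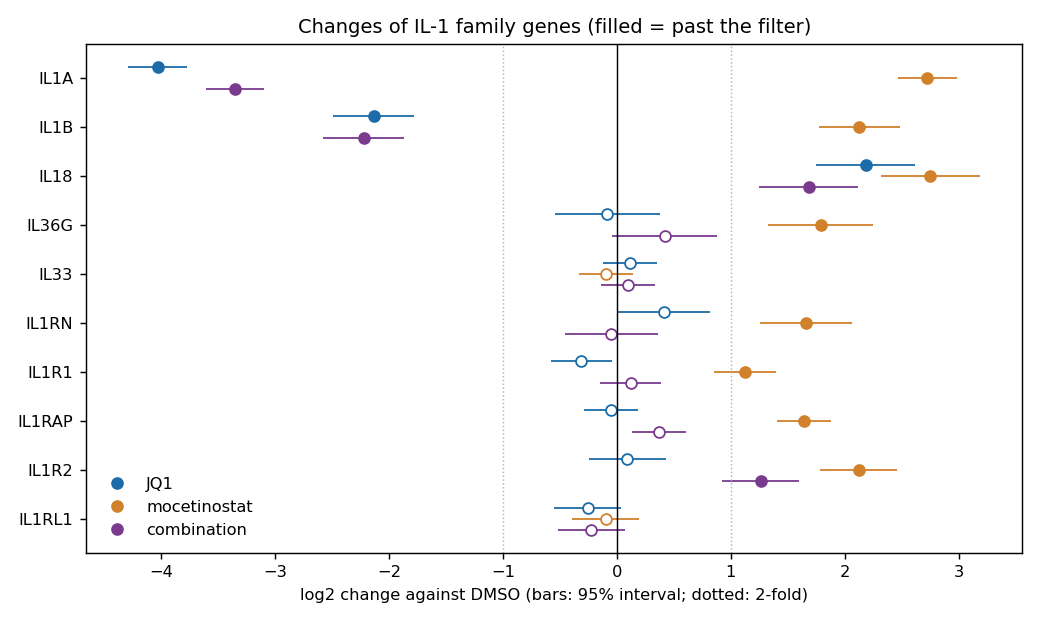
Log2 change of each gene against DMSO (x axis) with its 95% interval for JQ1, mocetinostat and the combination (n = 3 arrays each). Filled points passed the filter, and the dotted lines mark 2-fold. Mocetinostat passed for 8 genes, and the combination points of IL1A and IL1B lie near those of JQ1.

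Between the treatments, 7 members were lower with the combination than with mocetinostat and 0 were higher, where 1.74% and 1.18% of all probe sets were. Their median difference was −1.17, against 0.02 over all probe sets. IL1A and IL1B differed most, and the others passing the filter were IL1RN (−1.71, SE 0.18, adjusted p = 7.6e-05), IL36G (−1.37, SE 0.21, adjusted p = 0.000912), IL1RAP (−1.27, SE 0.11, adjusted p = 1.31e-05), IL18 and IL1R1 (−1.001, SE 0.12, adjusted p = 0.000196). The second IL1RAP probe set gave −0.74 (adjusted p = 0.00485), under 2-fold. IL1R1 sat at the 2-fold limit. Its difference was under 2-fold, from −0.99 to −0.93, without mocetinostat array 1 or 2 or combination array 1 or 2. Compared with JQ1, the combination passed the filter for 1 member, IL1R2, which was higher (1.17, SE 0.15, adjusted p = 0.000181), and 0 were lower, against 3.16% and 1.93% of all probe sets. Scaled to ribosomal protein genes this difference was 0.99, below 2-fold. Mocetinostat was higher than JQ1 for 7 members and lower for 0, against 4.11% and 1.81%, and IL18, IL33 and IL1RL1 were the exceptions.

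To ask whether the JQ1 effect was the same with and without mocetinostat, the combination was compared with the sum of the single log2 changes. It fell below this sum for 5 members and above it for 0, where 1.75% and 1.99% of all probe sets did so. For IL18 the single changes summed to 4.94 and the combination gave 1.68, a departure of −3.25 (SE 0.28, adjusted p = 2.19e-05). The JQ1 effect on IL18 was thus positive without mocetinostat (2.18) and negative with it (−1.07). For IL1RN the sum was 2.07 and the combination −0.05, a departure of −2.12 (SE 0.26, adjusted p = 0.000308).

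IL1A and IL1B also departed from the sum. The single changes of IL1B, −2.13 and 2.13, summed to −0.01 and the combination gave −2.22, a departure of −2.21 (SE 0.23, adjusted p = 8.47e-05). Its signals with JQ1 and with the combination were both below the median probe set. A JQ1 change cut short there would enlarge this departure, and a combination change cut short there would shrink it. Neither was tested. For IL1A the sum was −1.30 and the departure −2.05 (SE 0.16, adjusted p = 1.28e-05). For IL1RAP the departure was −1.22 (SE 0.15, adjusted p = 0.000348), but its second probe set gave −0.49 (adjusted p = 0.191), and the mean of the pair, −0.86, missed the filter. IL36G (−1.29, SE 0.30, adjusted p = 0.0161), IL1R2 (−0.95, SE 0.22, adjusted p = 0.0152) and IL1R1 (−0.69, SE 0.17, adjusted p = 0.0254) pointed the same way without passing. IL36G passed when DMSO array 1 was left out (−1.48), and IL1R2 when JQ1 array 2, mocetinostat array 1 or combination array 2 was left out (all −1.06).

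**Figure D3:**
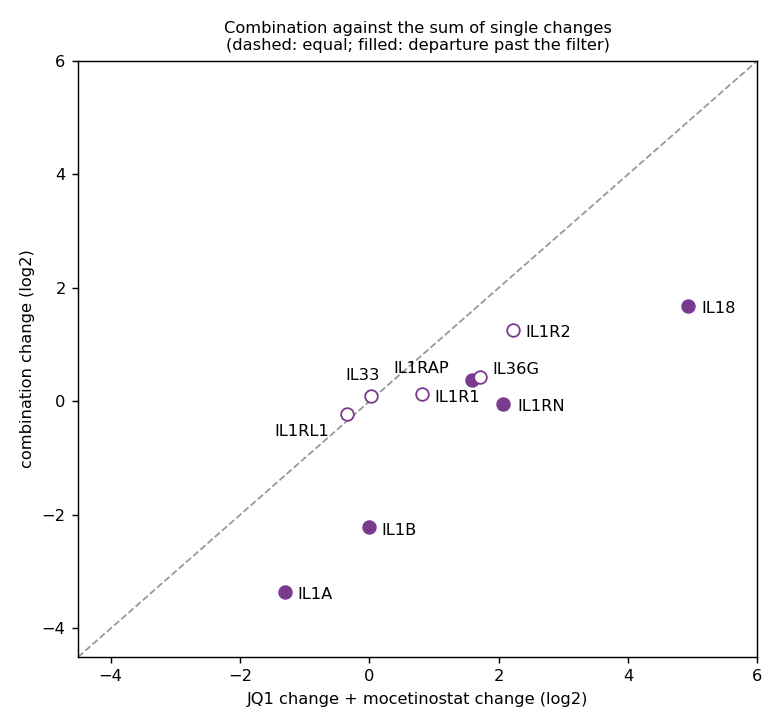
Log2 change with the combination (y axis) against the sum of the log2 changes with JQ1 and with mocetinostat alone (x axis) for the 10 genes, with equality dashed and filled points past the filter. IL18, at a sum of 4.94 and a combination change of 1.68, lies farthest below the line.

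Most of the members lie in a ligand cluster and a receptor cluster on chromosome 2, whose gene order was taken from RefSeq (GRCh38.p14) after the values had been seen. In the ligand cluster, 5 of 9 family genes rose with mocetinostat, where 4.66% of all probe sets did. IL1A, IL1B, IL37 and IL36G are consecutive in the order and all rose, the next genes IL36A, IL36B, IL36RN and IL1F10 changed by 0.43, 0.03, −0.01 and −0.07 without passing, and IL1RN at the far end rose. The flanking gene next to IL1A, CKAP2L, which encodes a protein of the mitotic spindle, fell with all 3 treatments (−3.91, −4.14 and −5.45). In the receptor cluster, IL1R2, IL1R1 and IL18R1 rose with mocetinostat, which is 3 of 6 family genes. IL18RAP changed by 0.91 (adjusted p = 0.00151), under 2-fold. Its DMSO mean was 2.76, below the median of every array, so this change may be understated. IL1RL2 changed by 0.50 and IL1RL1 by −0.10, and both lie between IL1R1 and IL18R1. The flanking gene next to IL1R2, MAP4K4, a kinase, fell with mocetinostat (−1.19, SE 0.14, adjusted p = 5.38e-05), and on the other side SLC9A4 changed by 0.10.

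**Figure D4:**
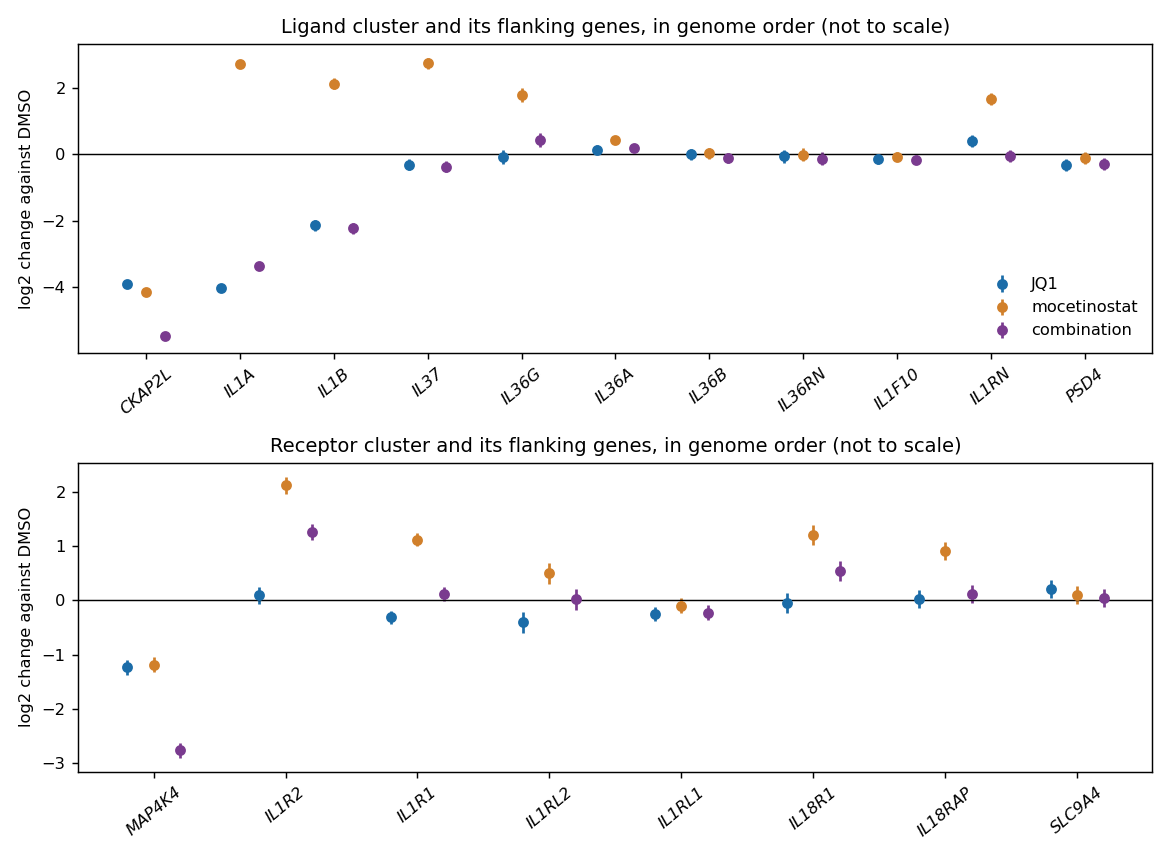
Log2 change against DMSO (y axis; bars, SE) for the genes of the ligand cluster and the receptor cluster in genome order (x axis, not to scale), each with a flanking gene at either end. In the ligand cluster IL1A, IL1B, IL37, IL36G and IL1RN rose with mocetinostat, and the combination lowered IL1A and IL1B, as JQ1 did.

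Of 12 further genes of the family, 0 rose and 1 fell with JQ1, 2 rose and 1 fell with mocetinostat, and 0 rose and 2 fell with the combination. The shares of all probe sets that rose and fell, for this and the next 3 lists, were 1.51% and 2.51%, 4.66% and 3.14%, and 5.23% and 4.63% in the same order, and with lists this small 1 gene is a large share. IL37, an anti-inflammatory ligand, measured 3.52, 3.37 and 3.43 in DMSO, 3.19, 3.24 and 2.95 with JQ1, 5.97, 5.97 and 6.58 with mocetinostat, and 3.00, 3.25 and 2.96 under the combination. It was thus high in the mocetinostat arrays alone (2.73, SE 0.16, adjusted p = 1.85e-07), from a DMSO level below the median of every array. IL18R1, the ligand-binding chain for IL-18, rose with mocetinostat (1.20, SE 0.18, adjusted p = 0.000397). SIGIRR, an inhibitory receptor of the family, fell under JQ1 (−1.64), mocetinostat (−1.24) and the combination (−1.64, SE 0.12 for each). IL1RAPL1, a synaptic relative of IL1RAP, fell with the combination (−1.73, SE 0.09, adjusted p = 4.87e-08).

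Of 19 genes that act next to the receptor, 17 were measured, and 0 rose and 3 fell with JQ1, 3 rose and 1 fell with mocetinostat, and 2 rose and 3 fell with the combination. IRAK1, a kinase that binds MYD88, fell with JQ1 (−1.29), mocetinostat (−1.91) and the combination (−2.23, SE 0.13 for each). IRAK3, which lacks kinase activity and restrains the pathway, moved with IL1A in direction for each single compound, falling with JQ1 (−1.03, SE 0.20, adjusted p = 0.00379) and rising with mocetinostat (1.81, SE 0.20, adjusted p = 3.44e-05), and changed by −0.24 with the combination (adjusted p = 0.475). PELI2, a ubiquitin ligase, rose with the combination (1.41, SE 0.27, adjusted p = 0.00166), and MAP3K8, a MAP kinase kinase kinase, with mocetinostat (1.34, SE 0.12, adjusted p = 6.42e-06).

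Of 20 genes of the inflammasome and of cytokine processing, 0 passed the filter upward against DMSO. JQ1 lowered 4 of them, mocetinostat 5 and the combination 8. The medians were −0.41, −0.38 and −0.57. AIM2, a sensor of cytosolic DNA, fell with JQ1 (−2.70), mocetinostat (−2.63) and the combination (−3.27, SE 0.16 for each). CTSS, a lysosomal protease, fell by 2.21, 2.17 and 2.67 on the log2 scale, and the sensor gene NLRP3 fell with JQ1 (−1.80) and the combination (−1.88). CASP4, an inflammatory caspase, fell with JQ1 (−1.35) and the combination (−1.66) and changed by −0.25 with mocetinostat. CASP1, which cuts IL-1β and IL-18 and was named after its values were seen, changed by −0.40, 0.71 and −0.41 and passed the filter against DMSO with none of the treatments. Its rise with mocetinostat (adjusted p = 0.00122) was under 2-fold. The DMSO mean of CASP1 was 3.55, below the median of every array, so this rise may be understated. CASP1 passed the filter for mocetinostat against JQ1 (1.11) and for the combination against mocetinostat (−1.11). PRTN3, also named after its values were seen, rose by 0.87 with mocetinostat (adjusted p = 0.00059), again under 2-fold.

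Of 24 genes known to respond to IL-1, 21 were measured, and 0 rose and 6 fell with JQ1, 18 rose and 0 fell with mocetinostat, and 8 rose and 3 fell with the combination. Their medians were −0.72, 2.07 and 0.97. With the combination, 14 of 21 were lower than with mocetinostat and 0 higher, where 1.74% and 1.18% of all probe sets were. Against JQ1, 14 of 21 were higher with the combination and 0 lower, where 3.16% and 1.93% of all probe sets were. CCL20, a chemokine, measured 3.93, 3.76 and 4.02 in DMSO, 3.95, 3.98 and 3.92 with JQ1, 10.89, 10.82 and 10.70 with mocetinostat, and 5.49, 5.58 and 5.47 under the combination. It rose by 6.90 with mocetinostat (SE 0.09, adjusted p = 1.63e-11) and by 1.61 with the combination (SE 0.09, adjusted p = 1.2e-07), in which IL1A and IL1B were below DMSO. CXCL8, a neutrophil chemokine, fell with JQ1 (−1.55) and rose with mocetinostat (3.88) and the combination (1.63, SE 0.14 for each). PTGS2, a prostaglandin synthase, rose with mocetinostat (4.10) and the combination (1.38), and LCN2, which binds bacterial iron carriers, rose by 5.54 with mocetinostat and changed by 0.08 with the combination. These genes respond to other stimuli as well, and the part of IL-1 in their changes was not tested.

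**Figure D5:**
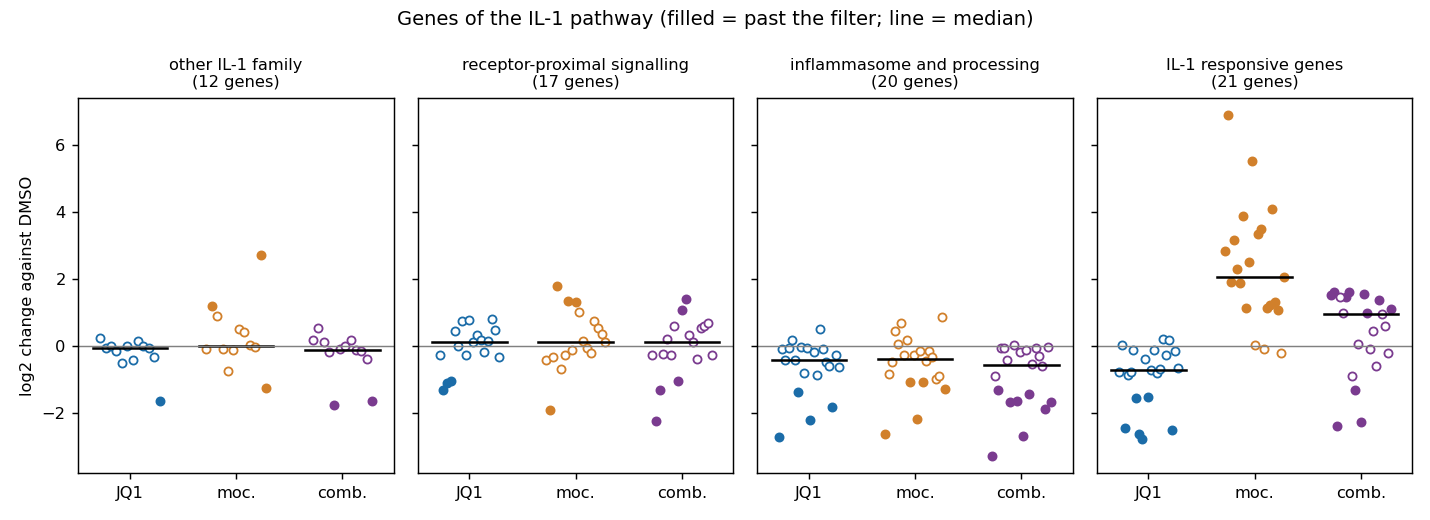
Log2 change against DMSO (y axis) of each gene in 4 groups of the IL-1 pathway for JQ1, mocetinostat and the combination (x axis), with medians as lines and filled points past the filter. Of the IL-1 responsive genes 18 of 21 rose with mocetinostat, and no inflammasome or processing gene passed the filter upward with any of the treatments.

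The genes closest to a member were those with the smallest distance between the 3 log2 changes against DMSO, over all genes with a single-symbol probe set. For IL1A these were MIR146A, a microRNA gene (distance 1.63), CSF3, which encodes a granulocyte growth factor (2.03), and the cytokine gene IL24 (2.27). For IL1B the closest was CSF3 (0.40). MIR146A measured 6.41, 6.29 and 6.29 in DMSO, 3.32, 3.00 and 3.53 with JQ1, 8.12, 8.22 and 8.09 with mocetinostat, and 3.90, 4.05 and 3.78 under the combination, so that, as for IL1A, no treatments overlapped. The probe set does not distinguish the mature microRNA from its precursor, so its signal is not a measure of the mature microRNA. The main mature product of MIR146A is shown only because this gene lay nearest to IL1A. Its seed (bases 2 to 8) is in capitals, from RefSeq (GRCh38.p14).
hsa-miR-146a-5p: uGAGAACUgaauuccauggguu
Most of the other members had closer neighbors. IL36G and IL1RAP lay 0.16 apart, and IL1RAP had IL36G as its closest gene. FAM83B was closest to IL36G (0.06), SERPINB12 to IL1R1 (0.06) and MIR4263 to IL1RN (0.12). IL1R2 had C1QL1 as its closest gene (0.14), and IL18 had ATP13A3-DT (0.65).

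Some markers of other cell types moved with mocetinostat. The summed signal of 10 myeloid markers ranged on the log2 scale from 7.32 to 7.50 in DMSO, 6.86 to 7.17 with JQ1, 7.81 to 8.02 with mocetinostat and 7.14 to 7.23 with the combination. CD14 was the only one that rose with mocetinostat, and PTPRC, the pan-leukocyte marker, averaged between 2.47 and 2.77 in the 4 treatments, below the median probe set. The summed signal of 8 keratinocyte markers ranged from 6.77 to 6.91, 6.68 to 6.91, 11.3 to 11.6 and 9.80 to 9.95 in the same order, with FLG and SBSN rising and KRT1 between 2.81 and 3.18. That of 6 measured fibroblast markers ranged from 7.55 to 7.67, 7.45 to 7.60, 9.45 to 9.53 and 7.95 to 8.06, with LUM rising and DCN between 2.32 and 2.43. The part of these genes in the changes of the IL-1 family was not tested.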

How the data were processed

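The deposited values are log2 signals that the authors computed by RMA from 12 Affymetrix Human Gene 2.1 ST arrays, for 53617 probe sets. RMA makes the distributions of the arrays equal, which hides any shift common to most transcripts, and its version and the genome build are not given in the sources used here. The labels give 3.17 µM mocetinostat and RPMI medium, and the study's methods differ in both. Genes were named from the platform's probe table, in which 23866 probe sets have 1 symbol, 1852 several and 27899 none, and each gene was represented by its single-symbol probe set of highest mean signal. The log2 values were fitted with limma (version 3.58.1, R 4.3.3) with a mean per treatment, on 8 residual and 3.10 prior degrees of freedom. The script was tested on simulated data. The number of arrays limits the precision. The members, gene lists and tests were chosen with earlier results of these data known. Named genes were all members, up to 4 genes per list with the largest change against DMSO among those passing the filter, and up to 3 genes nearest each member. Alternatives were a replicate block, leaving out each array, fitting only the compared groups, scaling to ribosomal protein genes, a filter on dim probe sets, other variance settings, another threshold and averaging probe sets.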

Additional observations from a re-analysis of the deposited data

Results flagged for a closer look

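In 5 genes the change with the combination differed from the sum of the changes with the single compounds, by the interaction term of the limma fit, so that the JQ1 effect differed with and without mocetinostat. The departures on the log2 scale were −3.25 for IL18, −2.21 for IL1B, −2.12 for IL1RN, −2.05 for IL1A and −1.22 for IL1RAP, and 1.75% of all probe sets passed in this direction. A second IL1RAP probe set gave −0.49 (adjusted p = 0.191), and the mean of the pair, −0.86, missed the filter. IL1B lay below the median probe set with JQ1 and with both compounds, where differences are compressed, and the part of this in its departure was not tested. For IL18 the JQ1 effect had opposite signs in the 2 settings, 2.18 alone and −1.07 on top of mocetinostat. The latter stayed negative when each array was left out (−1.23 to −0.99). It missed the filter without mocetinostat array 1 or 3 or combination array 1 or 3, and in the fit without moderation.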

How the results depend on the processing

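Over all members, comparisons and alternatives, 1405 of the values kept direction and side of the filter, 20 reversed, 14 lost and 7 gained the call. Replicate numbers did not pair the arrays (18 pairs, r from −0.09 to 0.04), and with the replicate block mocetinostat still raised 8 members and the combination remained below the sum in 5, with no member call changed. With a block on the number that ends each title, IL36G with JQ1 became 0.055, IL1RN with the combination 0.091, IL1RL1 in the combination against JQ1 −0.021 and the departure of IL33 −0.052, and the difference of IL1R1 between the combination and mocetinostat became −0.99 and missed the filter.

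Scaling to 29 ribosomal protein genes moved the median of all probe sets by −0.16 for JQ1, −0.18 for mocetinostat and −0.33 for the combination against DMSO, and by −0.18 and −0.15 for the combination against JQ1 and mocetinostat. JQ1 then up-regulated 528 probe sets (811 unscaled), and the combination 1694 (2806) and down-regulated 4308 (2484), with 1659 (1034) lower than with JQ1. The higher share of called probe sets went from 37.6% to 23.1% for JQ1, 59.7% to 44.3% for mocetinostat, 53% to 28.2% for the combination, and 62.1% to 42.9% and 40.4% to 24.8% for the combination against JQ1 and mocetinostat. Members up-regulated went from 8 to 7 with mocetinostat (IL1R1, 0.94), from 2 to 1 with the combination (IL1R2, 0.93), and from 1 to 0 against JQ1 (IL1R2, 0.99), while IL1R2 against mocetinostat reached −1.01. IL1R2 and IL33 with JQ1 became −0.062 and −0.042, IL1R1 and IL33 with the combination −0.21 and −0.23, and IL1RL1 against JQ1 −0.15. None of these reversals concerned a change past the filter.

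Leaving out each array kept 8 members higher with mocetinostat, 5 to 7 lower with the combination than with mocetinostat, and 5 to 6 below the sum. Changes that reversed ranged from −0.0089 to 0.20 (IL1R2 with JQ1), −0.12 to 0.068 (IL1RAP with JQ1), −0.28 to 0.11 (IL36G with JQ1), −0.19 to 0.14 (IL1RN with the combination), −0.20 to 0.0058, −0.062 to 0.15 and −0.045 to 0.029 (IL1B, IL1RL1 and IL33 in the combination against JQ1) and −0.013 to 0.15 (departure of IL33). Without moderation IL18 (−1.07) missed the filter against mocetinostat, and with an adjusted p under 0.05 in place of the unadjusted limit, and at least 2-fold as before, the departure of IL36G passed (−1.29). The filter on dim probe sets left out IL1RL1 and IL33. The cause of these shifts was not tested.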
